A study of Mus musculus with 3 samples.

Results

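Transforming growth factor β (TGF-β) receptors and Smads were followed as 10 genes of the 32285 in the deposited count matrices: *Tgfbr1*, *Tgfbr2*, *Tgfbr3*, *Eng*, *Acvrl1*, *Smad2*, *Smad3*, *Smad4*, *Smad6* and *Smad7*. They were chosen by symbol, and each symbol had 1 row in every matrix. The cells came from the ascending thoracic aorta of male C57BL/6J mice killed at postnatal day 45. The WT library pooled 3 WT littermates. The mgR library pooled 3 mice homozygous for the hypomorphic fibrillin-1 allele mgR (*Fbn1mgR/mgR*), a model of Marfan syndrome in which the allele is carried in every cell from conception. The mgR-LOS library pooled 4 *Fbn1mgR/mgR* mice that drank losartan, an angiotensin II type I receptor blocker, at 0.6 g/L from day 16. Vehicle was part of the study's treatment design, but the sources used here do not say if mgR mice received it. Whole-wall digests were sequenced as 3′ single-cell libraries, 1 per group, so no difference between groups could be tested against animals, and the spread between mice within a pool is not measured.

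In this pathway a dimeric ligand is held by a type II receptor, which phosphorylates a type I receptor, and the type I receptor phosphorylates receptor-activated Smads that enter the nucleus with the common partner *Smad4*. *Tgfbr2* and *Tgfbr1* are the type II and type I receptors for TGF-β and act through *Smad2* and *Smad3*, *Acvrl1* is a type I receptor used by endothelium for BMP9 and BMP10, and *Tgfbr3* (betaglycan) and *Eng* (endoglin) are co-receptors that present ligand. *Smad6* and *Smad7* are inhibitory Smads whose transcription is itself induced by BMP and TGF-β signals, which makes them both brakes and readouts. In people, loss-of-function variants of several of these genes cause inherited aortic aneurysm or hereditary hemorrhagic telangiectasia, and the pathway is a long-debated element of Marfan aortic disease.

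Barcodes with 600 to 5000 detected genes and at most 10% mitochondrial UMIs (unique molecular identifiers, the counted molecules) were kept, which left 5361, 8076 and 12721 in the WT, mgR and mgR-LOS libraries. Their median depth was 13636, 12410.5 and 8334 UMIs, so the mgR-LOS library was the shallowest per cell. Pairs of libraries shared 22 to 46 barcode sequences, at most 0.432% of the smaller library. Cells were placed into classes by panels of marker genes, and barcodes carrying the panels of 2 classes were left out. The gates held 3625, 3027 and 7712 smooth muscle cells (SMCs), 1305, 2320 and 3000 fibroblasts, 106, 207 and 175 endothelial cells (ECs) and 132, 1644 and 747 immune cells. All 6 markers of each panel were detected in its own class in every library. This follows largely from the gates, which were set on the same markers, and is no test of the classes. SMCs were 67.6% of kept barcodes in WT, 37.5% in mgR and 60.6% in mgR-LOS. The targeted gene, *Fbn1*, was at 250, 78.8 and 67.3 CPM in SMCs (counts per 1000000 UMIs), and the mgR level was 0.315 of WT (95% interval 0.304 to 0.327), the direction the genotype label gives.

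Levels here are UMIs of a gene summed over a class and as a share of all UMIs of that class, in CPM. Intervals are exact 95% Poisson intervals for levels and exact conditional binomial intervals for ratios, and they cover counting error only. The 3′ counts are compared between classes and libraries for 1 gene at a time, since they are not scaled for how well each transcript is captured. A ratio is called past the fold when it is at least 1.5 or at most 0.667 among genes with 10 CPM or more in either library.

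Promoter sequence for 5 of the 10 genes was found in the RefSeq table for GRCm38.p6 (*Tgfbr1*, *Tgfbr2*, *Eng*, *Smad3* and *Smad6*), as 250 bases before to 50 bases after a transcript start. Some members had ratios of the same contrast at least 25% above 1 in a cell class and at least 20% below 1 in another, with both intervals clear of 1. Of these, *Eng* and *Smad6* have a window, and these are shown. For *Eng*, at chr2:32646345-32646644 on the plus strand, capitals mark AGGAAG or its reverse complement CTTCCT. This is a form of the sequence bound by ETS factors, a family with endothelial members. Other forms were not searched for and are not marked. For *Smad6*, at chr9:64022010-64022309 on the minus strand, capitals mark GTCTAGAC, the palindromic Smad-binding sequence.
Eng: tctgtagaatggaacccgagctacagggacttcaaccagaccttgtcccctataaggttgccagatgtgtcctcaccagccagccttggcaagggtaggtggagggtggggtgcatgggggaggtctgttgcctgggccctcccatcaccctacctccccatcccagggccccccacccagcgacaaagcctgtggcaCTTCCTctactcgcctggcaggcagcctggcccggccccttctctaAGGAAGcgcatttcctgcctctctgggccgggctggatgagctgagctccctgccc
Smad6: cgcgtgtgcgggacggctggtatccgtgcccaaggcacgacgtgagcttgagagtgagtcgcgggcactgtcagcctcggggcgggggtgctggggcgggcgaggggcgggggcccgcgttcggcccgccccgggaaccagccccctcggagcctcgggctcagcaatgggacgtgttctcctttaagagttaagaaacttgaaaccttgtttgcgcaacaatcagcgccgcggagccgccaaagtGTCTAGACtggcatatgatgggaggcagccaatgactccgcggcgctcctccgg
Searched on both strands, AGGAAG was found 2 times in the *Eng* window, at 52 and 6 bases before the start, and AGGAAG or its complement is in 35.4% of the 32851 promoter windows in the table. The palindrome GTCTAGAC was found 1 time in the *Smad6* window, at 4 bases before the start, and it is in 70 of all windows, or 0.213%. None of the other members' windows held it. The shorter CAGACA, which is in 21% of windows, was found in a window of *Tgfbr1* and in neither sequence printed here. The GC-rich GGGCGG, present in 35.7% of windows, occurred 4 times in the *Smad6* window.

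The 10 genes divided the wall between them. *Eng*, *Acvrl1* and *Tgfbr2* were highest in ECs in every library, *Tgfbr3* and *Smad3* in fibroblasts and *Tgfbr1* in immune cells, while *Smad7* was spread over SMCs, fibroblasts and ECs. For *Tgfbr2* this describes the EC gate as a whole, which mixes vessels. Arterial luminal ECs, described below, had less *Tgfbr2* than fibroblasts in every library, and lymphatic ECs had more. SMCs held the highest level of none of the 10 in any library. Some neighbours in these orders could not be separated by their counting intervals: fibroblasts and ECs for *Smad3* and *Smad7* in WT, for *Smad4* and *Smad7* in at least 1 mutant library, and immune cells and SMCs for *Tgfbr1* in mgR. *Smad2*, highest in ECs, could not be separated between ECs and fibroblasts in WT or mgR. The plot of levels by class gives every value with its counting interval.

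**Figure D1:**
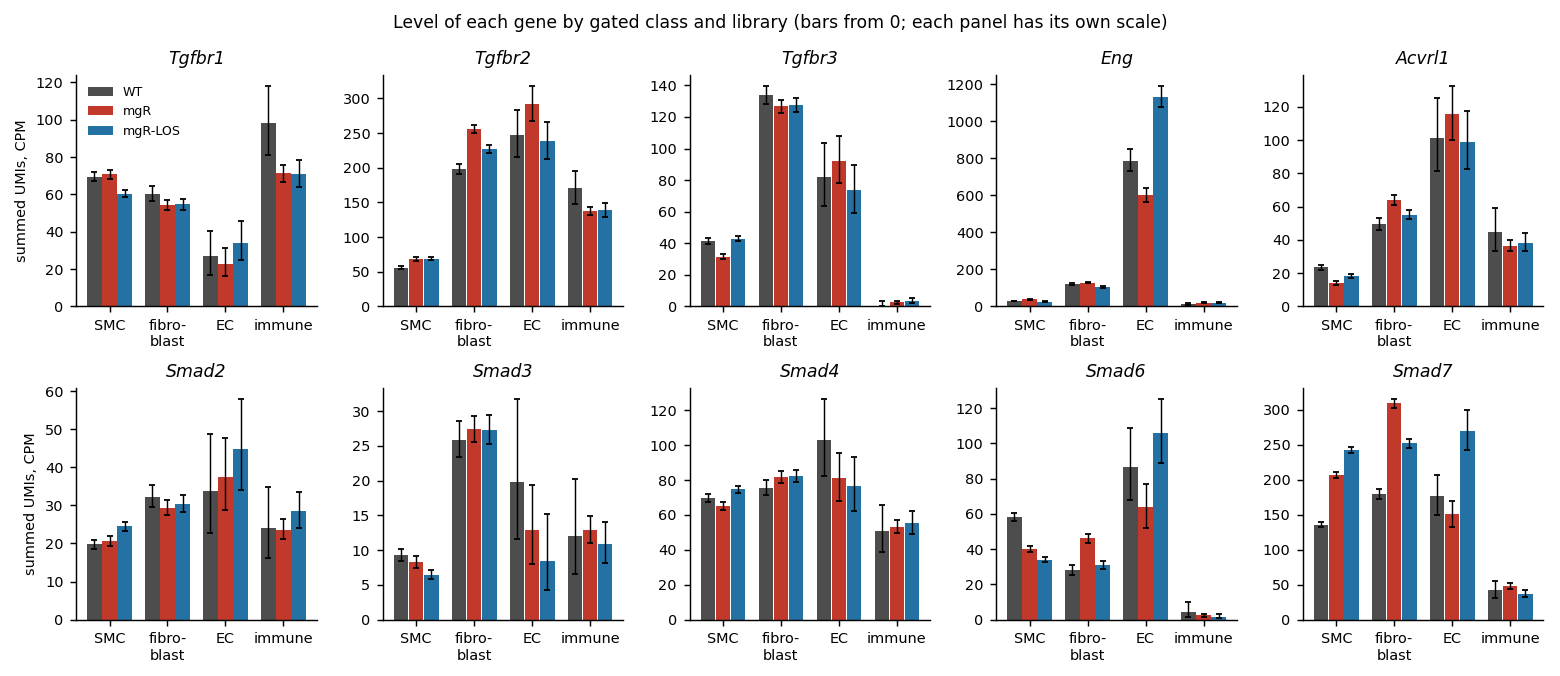
Level of each of the 10 genes (CPM of summed UMIs, y axis from 0, own scale per panel) in SMC-, fibroblast-, EC- and immune-gated barcodes (x axis) of the WT (grey), mgR (red) and mgR-LOS (blue) libraries, with exact 95% Poisson intervals as error bars. *Eng* stands at 602 to 1133 CPM in ECs and at 11.2 to 128 CPM in the other classes, and *Tgfbr3* is at 3.23 CPM or less in immune cells.

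*Tgfbr2*, the ligand-binding type II receptor, lies on chromosome 9 (GRCm38, 116084293 to 116175360, minus strand). In fibroblasts it was at 198 CPM in WT, 256 in mgR and 227 in mgR-LOS. In SMCs it was lower, at 55.5, 68.6 and 69.0 CPM. Both mutant libraries were above WT in these mesenchymal classes, by 1.29-fold in mgR fibroblasts (1.24 to 1.35) and 1.24-fold in mgR SMCs (1.17 to 1.30), neither past the fold. ECs held 247, 292 and 238 CPM, and in the mgR-LOS library their level could not be separated from that of fibroblasts. The EC ratios were 1.18 (1.002 to 1.39) for mgR over WT and 0.816 (0.705 to 0.942) for losartan over mgR. Without lymphatic barcodes, described below, these were 0.967 and 1.15, so both lay on the other side of 1. In immune cells *Tgfbr2* went the other way from SMCs and fibroblasts, at 170, 137 and 139 CPM, with mgR at 0.808 of WT (0.697 to 0.94).

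*Tgfbr1*, the type I receptor that *Tgfbr2* activates (chromosome 4, 47353222 to 47414931, plus strand), did not share the *Tgfbr2* difference in SMCs and fibroblasts. SMCs held 69.5, 70.7 and 60.3 CPM, and mgR and WT could not be separated (1.02, 0.969 to 1.07). With losartan the SMC level was 0.853 of mgR (0.815 to 0.894). Fibroblasts lay between 54.2 and 60.2 CPM and ECs, the lowest class, at 26.8, 22.8 and 34.0 CPM. Immune cells had 98.5 CPM in WT and 71.3 and 70.8 CPM in mgR and mgR-LOS, a ratio of 0.724 for mgR over WT (0.596 to 0.887). So both TGF-β receptors were lower in mutant than in WT immune cells, while *Tgfbr2* was higher in mutant SMCs and fibroblasts. The immune class differed in makeup at the same time: macrophage-gated barcodes, called without scaling for depth, were 65.9%, 51.7% and 68.3% of it. Within them *Tgfbr1* was at 123, 103 and 91.1 CPM and *Tgfbr2* at 208, 198 and 177 CPM.

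*Tgfbr3* encodes betaglycan, a co-receptor that presents TGF-β, above all TGF-β2, to *Tgfbr2* (chromosome 5, 107106570 to 107289629, minus strand). It marked fibroblasts, at 134, 127 and 127 CPM, and these levels differed little between libraries. ECs came next, at 81.7, 92.2 and 73.4 CPM. In SMCs it was at 41.3 CPM in WT, 31.4 in mgR and 42.8 in mgR-LOS. The mgR SMC level was the low one, at 0.759 of WT (0.709 to 0.812), and the losartan library was 1.37-fold above it (1.28 to 1.46). In WT immune cells there were 0 UMIs of *Tgfbr3* among 1157678, for which a floor of 3 counts is 2.59 CPM and the upper bound of the exact interval 3.19 CPM, and the mutant libraries had 2.52 and 3.23 CPM. The SMC marker panel, which immune cells should lack, was present in them at 1.73% to 2.42% of its SMC level and the fibroblast panel at 0.713% to 1.02% of its fibroblast level. The part of free RNA in the immune *Tgfbr3* values was not tested.

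*Eng*, endoglin, presents BMP9 and TGF-β to endothelial receptors (chromosome 2, 32646595 to 32682669, plus strand). It was at 788 CPM in WT ECs, 602 in mgR ECs and 1133 in mgR-LOS ECs. The mgR level was the lowest of the 3, at 0.764 of WT (0.693 to 0.843), and the losartan level was 1.88-fold that of mgR (1.74 to 2.04). The 5 barcodes richest in *Eng* held 25.2%, 15.5% and 23.1% of its EC UMIs, and without the 10% of barcodes with the most UMIs the losartan ratio was 1.55. SMCs showed the reverse order at far lower levels, with 29.7, 38.1 and 26.3 CPM, a ratio of 1.28 for mgR over WT (1.20 to 1.37) and 0.691 for losartan over mgR (0.646 to 0.738). The fibroblast marker panel in SMC-gated barcodes summed to 1235, 1741 and 1126 CPM, almost all of it *Col1a1* (1189, 1680 and 1036 CPM), and the other 5 markers were each highest in mgR-LOS. The part of fibroblast RNA in the SMC values was not tested. Among SMCs with 3 or more of the modulation markers *Vcam1*, *Spp1*, *Lum* and *Mgp*, which were 0.883%, 10.9% and 3.09% of the class, *Eng* was at 31.9, 55.6 and 35.4 CPM. These shares were not scaled for depth, and the median depth of SMCs was 14385, 15168 and 8500.5 UMIs. Without SMCs that carried *Vcam1*, *Spp1* or *Lum* UMIs the mgR over WT ratio was 1.08 (0.984 to 1.19).

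*Acvrl1*, the endothelial type I receptor ALK1 (chromosome 15, 101128522 to 101145336, plus strand), was at 102, 116 and 99.0 CPM in ECs, where no pair of neighbouring libraries could be separated. In SMCs it was the member furthest below WT in mgR, at 23.4, 14.1 and 18.3 CPM. That ratio was 0.602 (0.547 to 0.663), past the fold, and losartan stood 1.29-fold above mgR (1.18 to 1.43). Fibroblasts had the opposite order, with 49.4, 63.8 and 55.2 CPM and mgR 1.29-fold above WT (1.19 to 1.41). Immune cells had 44.9, 36.5 and 38.4 CPM. The EC marker panel in SMC-gated barcodes summed to 22.6, 8.21 and 15.0 CPM, under 0.44% of its level in ECs. *Pecam1* set that order (20.4, 2.50 and 9.38 CPM), and the other 5 markers were each lowest in WT, at 3.81 CPM or less. The part of EC RNA in the SMC values was not tested.

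*Smad2* and *Smad3* carry the TGF-β signal from *Tgfbr1*. *Smad2* (chromosome 18, 76241580 to 76310963, plus strand) was at 19.7, 20.6 and 24.5 CPM in SMCs and at 29.4 to 32.3 CPM in fibroblasts. ECs had 33.9, 37.4 and 44.8 CPM and immune cells 24.2, 23.6 and 28.5 CPM, and in all 4 classes but fibroblasts the losartan library was the highest. Its SMC level with losartan was 1.19-fold that of mgR (1.10 to 1.29). *Smad3* (chromosome 9, 63646767 to 63757994, minus strand) was highest in fibroblasts, at 25.9, 27.4 and 27.3 CPM. In SMCs it was at 9.29, 8.23 and 6.48 CPM, below 10 CPM in every library, and so was not counted there. EC *Smad3* rested on 17, 22 and 11 UMIs, for 19.8, 12.8 and 8.50 CPM, and both its successive ratios, 0.647 (0.328 to 1.30) and 0.662 (0.290 to 1.42), had intervals that held 1, while losartan over WT was 0.429 (0.181 to 0.970). Fibroblast ratios of both genes, mgR over WT and losartan over mgR, were between 0.909 and 1.06.

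*Smad4*, the shared partner of all receptor-activated Smads (chromosome 18, 73639009 to 73703780, minus strand), was at 69.8, 64.9 and 74.8 CPM in SMCs. Its ratios there were 0.930 (0.885 to 0.976) for mgR over WT and 1.15 (1.10 to 1.21) for losartan over mgR. In fibroblasts it was at 75.6, 81.8 and 82.3 CPM and in immune cells at 51.0, 53.2 and 55.5 CPM. ECs had the widest spread, with 103 CPM in WT and 81.1 and 76.5 CPM in the mutant libraries, from 88, 139 and 99 UMIs. Intervals of the EC ratios held 1, at 0.790 (0.600 to 1.04) for mgR over WT and 0.745 (0.553 to 1.004) for losartan over WT. No class had a ratio past the fold.

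*Smad7*, which blocks *Tgfbr1* and recruits ubiquitin ligases to it (chromosome 18, 75367529 to 75395935, plus strand), was the member furthest above WT in both mesenchymal classes. In SMCs it was at 136, 207 and 243 CPM, so both mutant libraries were above WT and the losartan library was the highest. In mgR it was 1.53-fold the WT level (1.48 to 1.57), and the ratio of losartan over mgR was 1.17 (1.14 to 1.20) and of losartan over WT 1.79. Fibroblasts had 179, 309 and 252 CPM, a ratio of 1.73 for mgR over WT (1.65 to 1.80), and here losartan stood at 0.816 of mgR (0.790 to 0.843). *Smad7* thus had its highest SMC level with losartan, and its highest level in fibroblasts as a whole in mgR. Without the *Gdf10* type fibroblasts the ratio of losartan over mgR was 0.871, and not every fibroblast subtype kept this order. ECs as a whole had 176, 151 and 270 CPM, and immune cells 42.3, 48.1 and 36.9 CPM. Barcodes with both SMC and fibroblast panels, left out of the classes, had 182, 384 and 325 CPM. They numbered 128, 539 and 769, or 2.39%, 6.67% and 6.05% of kept barcodes. For mgR over WT, *Eng* was 1.89, *Tgfbr2* 1.76, *Smad6* 1.22 (0.962 to 1.57) and *Tgfbr3* 0.737 in them. What leaving them out does to the SMC and fibroblast values of the members is covered only by the alternative that kept panels of 2 classes.

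*Smad7* was also read within subtypes of both classes. The SMC ratio for mgR over WT was 1.37 (1.31 to 1.42) without SMCs that carried *Vcam1*, *Spp1* or *Lum* UMIs, which is below the fold, and modulated SMCs held 178, 251 and 306 CPM. SMCs with *Rgs5* mural markers, 30.0%, 11% and 11% of the class, held 129, 204 and 249 CPM, and without SMCs that carried *Rgs5* UMIs the ratio was 1.49 (1.44 to 1.55), also below the fold. Among fibroblasts, those with the *Pi16* type markers had 145, 227 and 245 CPM, those with the *Gdf10* type markers 209, 369 and 253 CPM and those with valve type markers 171, 310 and 289 CPM. Every one of these subtypes was higher in mgR than in WT. Among the fibroblast subtypes, the *Pi16* type was highest with losartan and the *Gdf10* and valve types in mgR. Shares of cells followed the levels: thinned to 1000 UMIs each, 12%, 17.1% and 19.4% of SMCs had a *Smad7* UMI, leaving out 6, 4 and 5 shallower barcodes. The unthinned shares were 69.1%, 80.3% and 70.6%, at different depths. Within immune cells *Smad7* was at 15.3, 31.8 and 24.6 CPM in macrophages and at 178, 158 and 173 CPM in T and NK cells. Over all barcodes with macrophage markers the mgR over WT ratio was 2.11, larger than in SMCs or fibroblasts. It was past the fold, where 12.7% of all genes were higher. The level was low, and WT held 87 barcodes with macrophage markers and those of no other immune subtype.

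*Smad6*, an inhibitory Smad that acts mainly on BMP receptor signals (chromosome 9, 63953076 to 64022059, minus strand), did not follow *Smad7*. In SMCs it was at 58.1, 40.0 and 34.1 CPM, lower in both mutant libraries than in WT. The mgR level was 0.688 of WT (0.649 to 0.730), just short of the fold, and that of losartan over WT was 0.587, past it. In fibroblasts the order was 28.0, 46.1 and 31.0 CPM, with mgR 1.65-fold above WT (1.47 to 1.84) and losartan at 0.672 of mgR (0.614 to 0.735). So in mgR the inhibitory pair moved together in fibroblasts and apart in SMCs. Fibroblasts with *Gdf10* type markers, which were 8.43%, 26.2% and 16.9% of the class, held 29.7, 62.1 and 24.2 CPM of *Smad6*, and without them the mgR over WT ratio was 1.37 (1.21 to 1.56). ECs as a whole had 86.4, 63.6 and 106 CPM. Immune cells had 5, 32 and 9 UMIs, or 4.32, 2.38 and 1.71 CPM.

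Some receptors and co-receptors were also read within single fibroblast subtypes. Barcodes with *Pi16* type markers, an adventitial subtype, had more *Tgfbr2* than the class as a whole, at 250, 375 and 323 CPM in WT, mgR and mgR-LOS. They also had more *Tgfbr3*, at 215, 239 and 210 CPM. *Eng* in the Gdf10 type was at 104, 170 and 111 CPM, highest in mgR, where the class as a whole had 119, 128 and 104 CPM. For each of these pairs of gene and subtype the mgR library was the highest of the 3. The pairs are a selection, and this order is not shown to hold over all pairs. In fibroblasts as a whole *Tgfbr3* was highest in WT, at 134, 127 and 127 CPM. Other pairs, those of the valve type among them, and counting intervals are not given here for these genes.

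Members past the fold were counted beside all genes. In SMCs, mgR over WT, 1 of the 9 members tested was higher (*Smad7*) and 1 lower (*Acvrl1*), where 4.91% and 4.15% of all genes were past the fold in these directions. For losartan over mgR, 0 of 9 were past it either way, beside 4.34% and 3.49% of all genes. In fibroblasts, mgR over WT, 2 of 10 were higher (*Smad6* and *Smad7*, beside 6.52%) and 0 lower (4.12%). Losartan over mgR had 0 in either direction, beside 3.53% and 3.45%. Losartan over WT had *Smad7* higher (4.64%) and *Smad6* lower (3.27%) in SMCs, and 0 in fibroblasts (5.93% and 4.11%). The 3 contrasts share libraries and are not independent of each other. The median member ratio for mgR over WT was 1.02 in SMCs and 1.08 in fibroblasts, beside 0.988 and 1.00 over all genes tested.

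In ECs and immune cells fewer cells were gated, and a larger share of all genes was past the fold. For ECs, losartan over mgR, 3 of 10 members were higher (*Eng*, *Smad6* and *Smad7*, beside 10.3% of all genes) and *Smad3* was lower (10.5%). For mgR over WT, 0 were higher (13.9%) and *Smad3* was lower (9.41%). For losartan over WT, *Smad7* was higher (14.5%) and *Smad3* lower (11.8%). In immune cells *Eng* was higher in mgR than in WT (8.92%, with 0 lower beside 7.33%), at 11.2, 18.7 and 20.5 CPM, and its interval (0.957 to 3.17) held 1. It was also higher in losartan over WT (12.2%, with 0 lower beside 7.34%), and 0 of the 8 tested were past the fold for losartan over mgR (6.24% and 4.43%). The plot of ratios places all of these together.

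**Figure D2:**
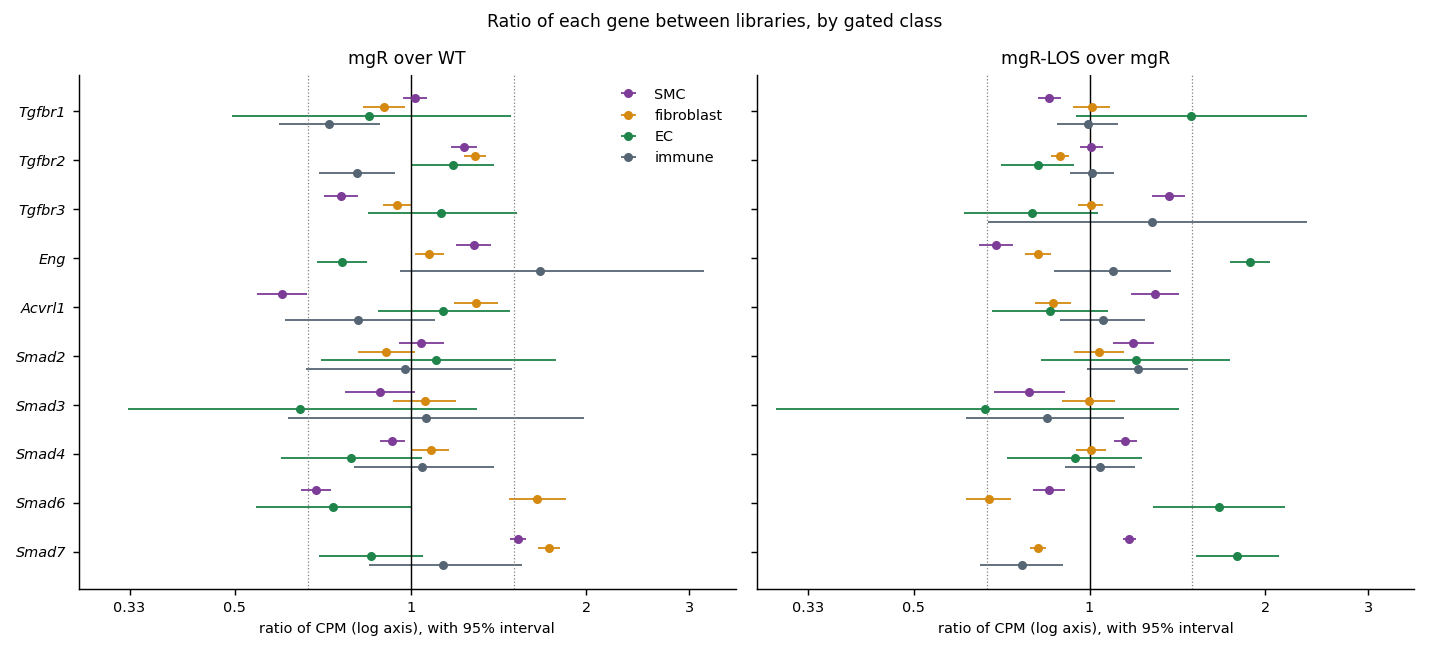
Ratio of CPM for each of the 10 genes (rows) in mgR over WT (left) and mgR-LOS over mgR (right), log x axis, with points for SMC (purple), fibroblast (orange), EC (green) and immune (grey) classes and lines for exact 95% intervals. Dotted lines mark 1.5 and its reciprocal, *Smad7* is at 1.53 in SMCs and 1.73 in fibroblasts on the left, EC *Eng* is at 1.88 on the right, and ratios with fewer than 10 UMIs in either library (*Smad6* in immune cells, and *Tgfbr3* there on the left) are not drawn.

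The EC gate mixes vessels, and its mix differed between libraries, so the members were also read within EC subtypes. Barcodes with lymphatic markers (*Prox1*, *Lyve1*, *Mmrn1*, *Flt4* and *Ccl21a*) were 15, 57 and 22 cells, or 14.2%, 27.5% and 12.6% of ECs, in WT, mgR and mgR-LOS. Lymphatic ECs had less *Eng*, *Smad6* and *Smad7* than arterial luminal ECs in every library, and more *Tgfbr2*. Lymphatic *Eng* was at 416, 379 and 297 CPM. Lymphatic *Tgfbr2* was at 598, 513 and 398 CPM, against 177, 159 and 180 CPM in arterial luminal ECs. Lymphatic *Smad7* was at 17.3, 12.2 and 20.2 CPM, and *Smad6* at 0, 2.04 and 0 CPM. Median depths of these barcodes were 6619, 7816 and 5069 UMIs. With so few cells these low levels rest on few UMIs, and 0 CPM does not show absence.

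In the 47, 88 and 76 barcodes with arterial luminal markers (*Fbln5*, *Cytl1*, *Clu*, *Bmx* and *Sulf1*), *Eng* was at 756, 794 and 1345 CPM. WT and mgR could not be separated there (1.05, 0.913 to 1.21), unlike in the whole EC gate, while losartan remained 1.70-fold above mgR (1.52 to 1.90). *Smad7* in these cells was at 232, 304 and 386 CPM, with ratios of 1.31 (1.03 to 1.69) for mgR over WT and 1.27 (1.04 to 1.55) for losartan over mgR. Arterial luminal *Smad7* therefore had the same order of libraries as SMC *Smad7*, where the whole EC gate had mgR lowest. *Smad6* was at 98, 143 and 167 CPM, higher in mgR than in WT by 1.46-fold (1.01 to 2.16), and losartan over mgR was 1.17 (0.868 to 1.57). *Acvrl1* was at 93.2, 142 and 99.3 CPM.

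With the lymphatic barcodes left out of the EC gate, losartan over mgR was 1.83 for *Eng* (1.67 to 2.0), 1.47 for *Smad7* (1.245 to 1.74) and 1.38 for *Smad6* (1.06 to 1.79). The members past the fold were then *Tgfbr1* and *Eng* higher and *Smad3* lower, beside 15.0% and 12% of all genes. For mgR over WT, *Eng* was at 0.846 (0.760 to 0.942) and *Smad7* at 1.10 (0.897 to 1.36), so the *Smad7* ratio lay on the other side of 1 from that of the whole gate (0.854, 0.696 to 1.05), and both intervals held 1. These restrictions were chosen after the values had been seen.

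**Figure D3:**
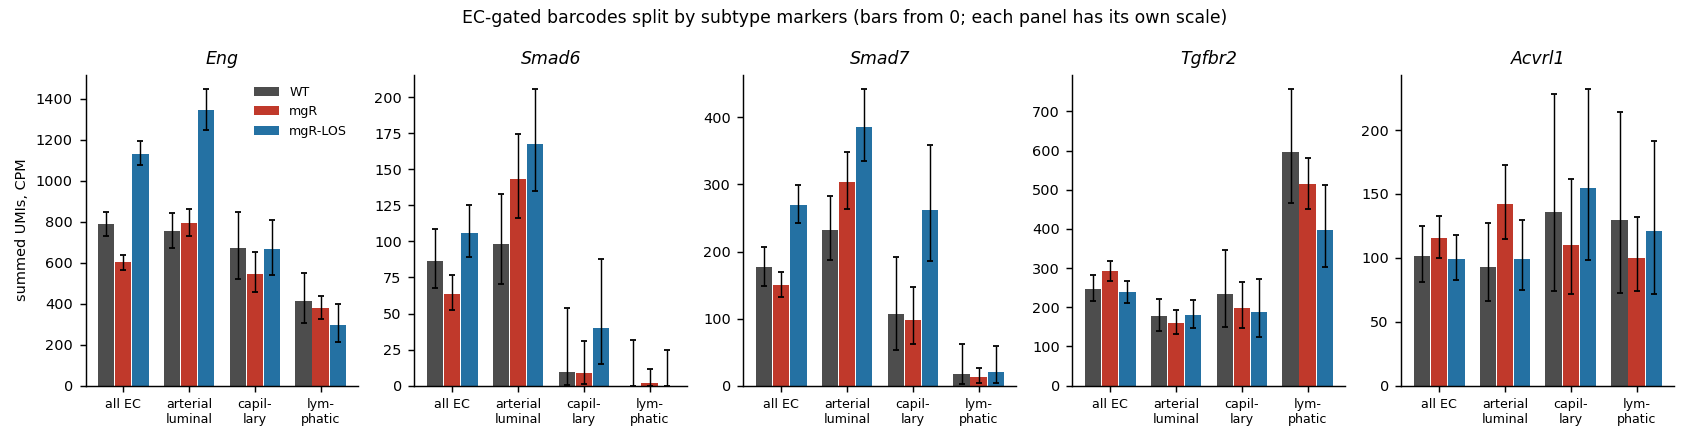
Levels (CPM of summed UMIs, y axis from 0, own scale per panel) of *Eng*, *Smad6*, *Smad7*, *Tgfbr2* and *Acvrl1* in all EC-gated barcodes and in those with arterial luminal, capillary or lymphatic markers (x axis), for WT (grey), mgR (red) and mgR-LOS (blue), with exact 95% Poisson intervals. Arterial luminal *Smad7* is at 232, 304 and 386 CPM, and lymphatic ECs lie at 20.2 CPM or less for *Smad7* and above 390 CPM for *Tgfbr2*.

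Other genes of the pathway were counted from lists. Of the ligands and the proteins that store or activate them, 15 of 17 were tested in SMCs, and 7 were higher (beside 4.91% of all genes) and 2 lower (4.15%) in mgR than in WT. The highest ratios were those of *Gdf10*, a TGF-β family ligand (4.54 and 24.5 CPM in WT and mgR, 5.40-fold), and *Bmp4* (5.43 and 17.6 CPM, 3.25-fold). The lowest were *Itgb8*, a subunit of an integrin that activates latent TGF-β (0.500), and *Ltbp4*, a latent TGF-β binding protein (0.625). *Gdf10*, also a marker of the *Gdf10* type fibroblasts, was higher past the fold in fibroblasts and ECs too (beside 6.52% and 13.9% of all genes). The part of fibroblast RNA in its SMC value was not tested. The 3 TGF-β ligands were all higher in mgR SMCs: *Tgfb1* was at 26.4, 35.6 and 31.5 CPM. *Tgfb2* was at 172, 257 and 214 CPM, and *Tgfb3* at 60.5, 108 and 72.7 CPM, of which *Tgfb3* alone was past the fold (1.79, 1.71 to 1.87). In fibroblasts *Tgfb3* had the reverse order, at 104, 74.7 and 93.0 CPM.

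Of the BMP and activin receptors and other Smads, 8 of 11 were tested in SMCs. In mgR over WT, 0 were higher past the fold (beside 4.91% of all genes) and 1 lower (4.15%). This was the BMP type I receptor *Bmpr1b*, at 52.8 and 14.8 CPM (0.280, 0.257 to 0.305), and it was at 11.2 CPM with losartan. The next lowest was *Smad1* (0.802), which carries BMP signals, and the highest were the type II receptor *Bmpr2* (1.18) and *Smad9* (1.05). Of the negative regulators, 9 of 12 were tested, and 0 were lower (beside 4.15% of all genes) and 1 higher (4.91%). This was *Smurf1* (18 and 27.9 CPM, 1.55), one of the ubiquitin ligases that *Smad7* brings to the receptor, followed by *Smurf2* (1.26), another of them. The lowest were *Bambi* (0.667) and *Pmepa1* (0.916), and *Bambi*, a decoy receptor, was just short of the fold.

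Genes that TGF-β is known to induce were read beside *Smad7*, which is itself 1 of that list of 14. In SMCs, mgR over WT, 3 of 13 tested were higher (*Postn*, *Fn1* and *Smad7*) and 1 lower (*Ccn1*), beside 4.91% and 4.15% of all genes. *Fn1*, fibronectin, was at 460, 1830 and 550 CPM, and *Postn*, the matrix protein periostin, at 1286, 2021 and 1282 CPM. For losartan over mgR, 6 of 13 were lower (*Ccn2*, *Postn*, *Fn1*, *Col1a1*, *Eln* and *Pmepa1*) and 1 higher (*Cdkn1a*), beside 3.49% and 4.34% of all genes, and the median ratio was 0.708 beside 1.02 over all genes. *Ccn2*, connective tissue growth factor, was at 2087, 2218 and 675 CPM. *Smad7* was not among these 6 genes, with a ratio of 1.17 and its highest SMC level in the losartan library. The 6 were named because they were past the fold, so this does not set *Smad7* apart from the rest of the list. In fibroblasts 2 of 14 were higher in mgR than in WT (*Fn1* and *Smad7*) and 1 lower (*Tgfbi*), beside 6.52% and 4.12% of all genes. With losartan 3 were lower than in mgR (*Ccn2*, *Fn1* and *Eln*) and 2 higher (*Tgfbi* and *Cdkn2b*), beside 3.45% and 3.53%. Without SMCs that carried *Vcam1*, *Spp1* or *Lum* UMIs, 4 of 13 were lower with losartan and 1 higher, beside 2.94% and 4.34% of all genes.

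**Figure D4:**
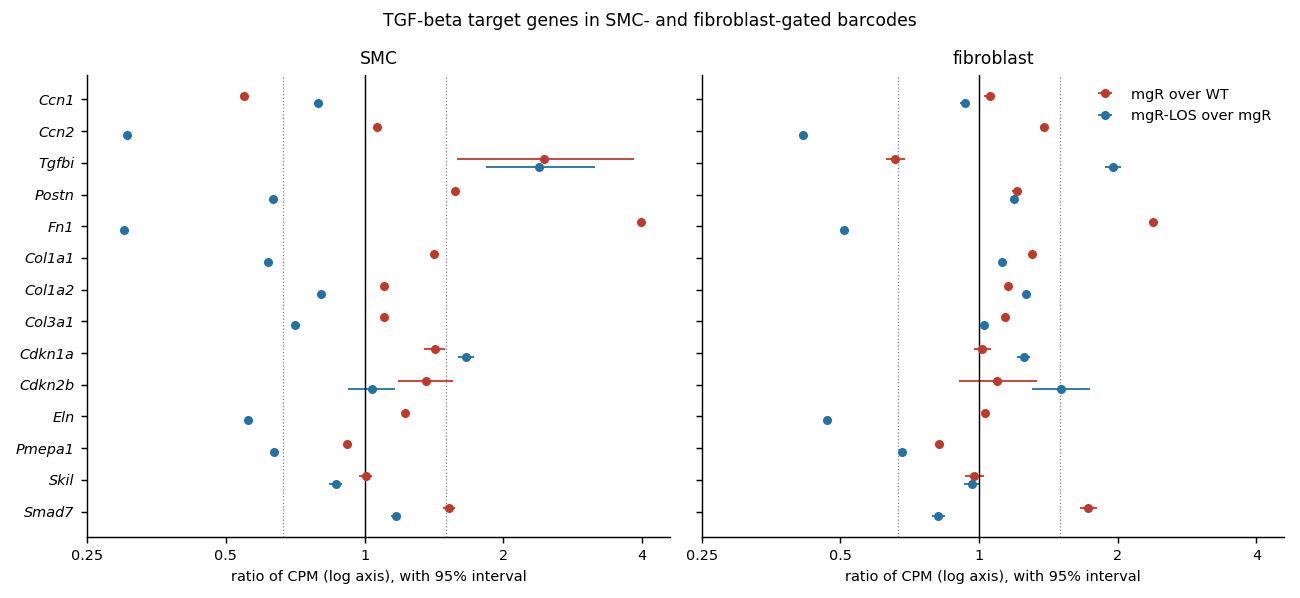
Ratio of CPM (log x axis) of the 14 TGF-β target genes (rows) in SMC-gated (left) and fibroblast-gated (right) barcodes, for mgR over WT (red) and mgR-LOS over mgR (blue), with exact 95% intervals as lines and dotted lines at 1.5 and its reciprocal. In SMCs *Fn1* is at 3.98 and 0.301 and *Smad7* at 1.53 and 1.17, and *Tgfbi*, drawn in both panels, was below 10 CPM in SMCs and not counted there.

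Targets of BMP and ALK1 signals form a list of 10 that holds *Smad6* and *Smad7*. In SMCs the highest ratio for mgR over WT was that of *Id1*, an inhibitor of DNA-binding factors (141, 331 and 369 CPM, 2.36-fold for mgR over WT), and the lowest were those of *Bambi* (0.667) and *Smad6* (0.688). In ECs, losartan over mgR, 5 of 9 tested were higher, beside 10.3% of all genes: *Id2*, *Smad6*, *Smad7*, *Hey1* and *Atoh8*. *Id2* was at 168, 94.0 and 232 CPM in WT, mgR and mgR-LOS, the same order as *Eng*. Without the lymphatic barcodes 2 of 9 were higher (*Id2* and *Hey1*, beside 15.0%), so the count depended on them. Of the 10 dissociation and stress genes, *Hspa1a* and *Hspa1b* were lower in mgR than in WT SMCs, beside 4.15% of all genes. They were at 459, 184 and 459 CPM and at 297, 120 and 236 CPM. In ECs *Fos*, *Fosb* and *Junb* were higher in mgR than in WT, beside 13.9% of all genes. Without the lymphatic barcodes only *Fos* was, beside 15.2%. The stress genes were not compared barcode by barcode with the members. Their part in the members' values was not tested.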

How the data were processed

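The libraries were made with 10x Genomics 3′ v3.1 chemistry. Per the labels, reads were aligned and counted with Cell Ranger against mm10 (GRCm38); the submitters' processing notes give version 6.0.1, and the matrix headers 5.0.1 for WT and mgR and 6.0.1 for mgR-LOS. The values the authors deposited are raw UMI counts per gene and barcode, not normalized. The 3 matrices hold 7858, 10657 and 14663 barcodes and 83338726, 123956320 and 121436873 UMIs in WT, mgR and mgR-LOS. Gene positions are from GENCODE release 21 on GRCm38.

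Barcodes were kept if they had 600 to 5000 genes and no more than 10% of UMIs from mitochondrial genes. A barcode entered a class when it carried at least 3 panel markers and its panel UMIs per 10000 reached 64 (SMC), 24 (fibroblast), 12 (EC) or 8 (immune, Schwann and mesothelial). The fibroblast gate had the most barcodes close to its threshold, 382, 795 and 813 of them. Barcodes with panels of 2 classes were left out, and no doublet caller was run. Subtypes, and the sets that left out barcodes with given markers, were defined by markers with any UMI, without scaling for depth. Shares of subtypes therefore depend on depth as well as on the cells, and the mgR-LOS library was the shallowest. Counts were summed per class and library with Python 3.11.15, numpy 2.4.6, pandas 2.3.3 and scipy 1.17.1, and plotted with matplotlib 3.10.9. With 1 library per group no test between groups was made. The interval code was tested on simulated data.

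The members and gene lists were chosen with earlier results of these data known. All 10 members are named, and from each list the up to 2 genes with the highest and lowest mgR over WT ratio in SMCs, *Fbn1* and the 3 TGF-β ligands. A gene of the TGF-β target list is not reported here and was left out of that list's counts. Other list genes are named because they were past the fold, after their values were seen. Alternatives varied the filters, gates, scaling, fold and depth.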

Additional observations from a re-analysis of the deposited data

Results flagged for a closer look

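For 4 members, ratios of the same contrast lay at least 25% above 1 in a cell class and at least 20% below 1 in another, with both intervals clear of 1. Each class is 1 library per group, and none of these differences was tested. *Eng* in mgR over WT was 1.28 in SMCs and 0.764 in ECs. The SMC ratio was 1.08 without SMCs that carried *Vcam1*, *Spp1* or *Lum* UMIs, and its interval held 1. The EC ratio stayed below 1 without lymphatic barcodes, but in arterial luminal ECs alone mgR and WT could not be separated. *Eng* in losartan over mgR was 1.88 in ECs and 0.691 in SMCs. *Acvrl1* in mgR over WT was 1.29 in fibroblasts and 0.602 in SMCs. *Smad6* in mgR over WT was 1.65 in fibroblasts and 0.688 in SMCs. *Smad6* in losartan over mgR was 1.66 in ECs and 0.672 in fibroblasts. *Smad7* in losartan over mgR was 1.79 in ECs and 0.767 in immune cells. Without lymphatic barcodes the EC ratios of *Smad6* and *Smad7*, losartan over mgR, were smaller and no longer past the fold.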

How the results depend on the processing

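Over all alternatives, 1170 values of member ratios lay within their main interval and 153 outside it, and in 1 further value a ratio past the fold lay on the other side of 1. Of the 118 member ratios, most of them not past the fold, 46 lay on the other side of 1 in at least 1 alternative. For every count below the cause was not tested. The ratio past the fold was *Smad6* in ECs, losartan over mgR, which was 0.929 with every barcode thinned to 1000 UMIs. *Smad7* in SMCs, mgR over WT, ranged from 1.37 to 1.64 and was above 1 in 12 of 12 alternatives, and *Acvrl1* there from 0.530 to 0.716. *Smad6* in fibroblasts, mgR over WT, ranged from 1.37 to 2.91 and *Smad7* from 1.61 to 1.93. *Eng* in ECs, losartan over mgR, ranged from 1.55 to 2.16 and *Smad7* there from 1.41 to 2.03. Thinning to 1000 UMIs moved 68 of 114 member ratios. Dividing ratios by the median ratio moved 56 of 709 ratios of list genes and 0 of 118 of members. Averaging per-barcode shares moved 18 of 120 levels. Thinning to 2000 in place of 1000 UMIs moved 102 of 120 shares. More UMIs per barcode are bound to raise most such shares, so this is no test of them. Ratios with 0 UMIs in a library gave no value.

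Counts of members past the fold, higher or lower, moved as follows. Shares of all genes past the fold were recomputed only for the restricted sets. These were ECs without lymphatic barcodes, macrophages alone, fibroblasts without the *Gdf10* type and SMCs without *Vcam1*, *Spp1* or *Lum* UMIs. Every other count below lacks such a share and shows only how the calls moved. In SMCs, mgR over WT, 0 were higher with at most 5% mitochondrial UMIs, with CPM recomputed without mitochondrial, ribosomal protein, globin, Gm42418 and AY036118 genes, without SMCs carrying *Vcam1*, *Spp1* or *Lum* or without those carrying *Rgs5*, with per-barcode means, without the 10% deepest barcodes and at a fold of 2, and 2 at the lower fold tried (25% above 1). There 2 were lower under the recomputed CPM, without either SMC subset and when thinned, 0 at 5% mitochondrial UMIs, by highest marker level, at a minimum of 50 CPM and at a fold of 2, and 3 at the lower fold. Among SMCs without *Vcam1*, *Spp1* or *Lum*, 4.18% of all genes were higher and 4.21% lower in mgR over WT. In SMCs, losartan over mgR, 2 were higher and 1 lower at the lower fold, and 1 lower at 5% mitochondrial UMIs. Losartan over WT had 2 lower at the lower fold, and 0 higher and 0 lower at a fold of 2.

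In fibroblasts, mgR over WT, 1 was higher at 50 CPM and without the *Gdf10* type, 4 at the lower fold and 0 at a fold of 2. When thinned, *Smad3* (2.12) was past the fold along with *Smad6* and *Smad7*. Without the *Gdf10* type 6.43% of all genes were higher. Losartan over mgR had 1 lower at 5% mitochondrial UMIs, with panels of 2 classes kept, with per-barcode means, without the deepest barcodes and at the lower fold, and 2 when thinned. Losartan over WT had 1 higher at the lower fold and when thinned.

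In ECs, mgR over WT, 0 were lower with 200 to 7000 genes, at 50 CPM, without lymphatic barcodes, at 20% mitochondrial UMIs, without the deepest barcodes and at a fold of 2, 2 at 5% mitochondrial UMIs and when thinned (3 then higher), and 4 at the lower fold. For losartan over mgR, 0 were lower at 50 CPM, under the recomputed CPM, by highest marker level, divided by the median ratio and at a fold of 2, and 2 at the lower fold, while 5 were higher when thinned, 4 at the lower fold, 2 without lymphatic barcodes, 1 without the deepest barcodes and 0 at a fold of 2. For losartan over WT, 2 were higher with 200 to 7000 genes and at 20% mitochondrial UMIs, 3 without lymphatic barcodes, at 5% and when thinned, 4 at the lower fold and 0 divided by the median ratio or at a fold of 2. There 0 were lower at 50 CPM, and 2 at 5%, at the lower fold and when thinned. Without lymphatic barcodes 13.3% of all genes were lower in mgR over WT. Higher were 15.0% in losartan over mgR and 17.8% in losartan over WT.

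In immune cells, *Eng* was the member higher in mgR and in losartan over WT. The counts were 0 at 50 CPM and at a fold of 2, and 2 in macrophages alone (*Eng* and *Smad7*). They were also 2 when thinned, but these were *Smad2* and *Smad3*, each with UMIs in only 1 thinned WT barcode. *Eng* was then below the fold, at 1.12 in mgR over WT and 1.24 in losartan over WT. In macrophages alone 12.7% of all genes were higher in mgR over WT and 15.9% in losartan over WT. At the lower fold, 1 was lower in each of the 3 contrasts. When thinned, 2 were lower in mgR and in losartan over WT, and at 5% mitochondrial UMIs 1 was lower in losartan over WT. No paired analysis was possible because each group is 1 library and no result comes from a test. The restrictions to ECs without lymphatic barcodes, macrophages alone and fibroblasts without the *Gdf10* type were chosen after seeing the data. Depth limits the low members in the small classes, such as *Smad3* in ECs with 11 to 22 UMIs and *Smad6* in immune cells with 5 to 32.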

Other observations

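The genes whose levels were most like each member were sought over the 12 profiles of 4 classes by 3 libraries, among 8842 genes with 20 CPM or more in at least 1 profile, as Pearson correlations of log2(CPM + 1). Profiles of a library share its depth and those of a class share their cell type, so these are descriptions. *Tgfbr3* was closest to *Grb10* (r = 0.998), *Id3* and *Rgmb*. *Eng* was closest to *Hspa12b* (0.989), *Ece1* and *Afdn*, *Tgfbr2* to *Thy1* (0.987), *Gbp6* and *Myl12b*, and *Acvrl1* to *Nod1* (0.985), *Tpcn1* and *Tfpi*. *Smad6* was closest to *Mgll* (0.984), *Ppp1r37* and *Enpp5*, and *Smad7* to *Angpt2* (0.970), *Adamts1* and *Stam*. *Tgfbr1* was closest to *Pole4* (0.959), *Sdc4* and *Ola1*. The nearest to *Smad2*, *Smad3* and *Smad4* were *Stag1* (0.959), *Creld2* (0.954) and *Cfap298* (0.966).

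Among the members themselves, over the same 12 profiles, *Smad7* was most like *Tgfbr3* (0.909) and *Smad6* (0.884), and *Tgfbr1* was negative with all 9 others, most with *Eng* (−0.926). *Smad7*, *Tgfbr3* and *Smad6* were each lowest in immune cells in every library. Within SMCs they parted, with mgR over WT ratios of 1.53, 0.759 and 0.688.

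A small Schwann gate of 10, 20 and 25 barcodes held *Eng* at 149, 212 and 204 CPM, more than SMCs in each library. The mesothelial gate of 11, 30 and 19 barcodes held it at 0, 2.69 and 0 CPM. These mesothelial values were 0, 1 and 0 UMIs, with upper bounds of 33.9, 15.0 and 25.1 CPM.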
